A study of Mus musculus with 36 samples.

Results

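Myelin and mature oligodendrocyte genes are described here across the 8 groups of a hippocampal RNA sequencing study. The set holds 29 named genes, each found by its symbol among the 50559 genes of the count table, and all 29 passed the filter on low counts. Oligodendrocytes wrap axons of the central nervous system in myelin, a stack of membrane that is rich in cholesterol and galactolipids and is compacted by a small set of proteins. The wrapping speeds conduction and keeps ion channels clustered at the nodes, and oligodendrocytes also supply axons with metabolites. In the hippocampus, myelinated fibres run mainly in the alveus, the fimbria and the layers that cortical fibres cross, and myelin genes are commonly read as an index of mature oligodendrocytes.

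Messenger RNA was sequenced from the input fraction, the cleared lysate of both hippocampi, of female mice aged 6 months. Trained mice learned the Morris water maze, a hidden-platform test of spatial memory, with 6 trials a day over 5 days and a probe test 24 h later, and tissue was taken 2 h after the probe. Naive mice stayed in the home cage, and all mice were handled on 3 days beforehand. The trained groups held 3 APP/Tau, 4 Tau, 3 APP and 5 wild-type (WT) libraries, and the naive groups held 6 APP/Tau, 4 Tau, 5 APP and 6 WT libraries. APP mice carried human APP with the Swedish and Indiana mutations (J9 line), Tau mice carried human tau with the P301S mutation (PS19 line), and APP/Tau mice carried both, each heterozygous on C57BL/6. All groups, WT included, also carried Pvalb-IRES-Cre and RiboTag, which tag ribosomes of parvalbumin neurons, but the input fraction was not selected for that tag. The PS19 transgene is driven by the mouse prion protein promoter. Tau carriers below means the 17 libraries of the Tau and APP/Tau groups, and non-carriers the 19 libraries of the APP and WT groups.

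Library totals ran between 69.2 and 125 M counts (M for mega). Prnp lay between 1423 and 2142 CPM (counts per M of the scaled library total) in 16 of the Tau-labelled libraries and between 728 and 879 CPM in the 19 others, but the library labelled Tau trained replicate 4 had 846 CPM. That library was kept under its label, and medians and counts of the 29 genes that move by over 1.5 times or change sign without it are given without it too. Markers of hippocampal excitatory neurons summed to 5072 to 8234 CPM in Tau carriers and 5706 to 7720 CPM in non-carriers, and none was at 0 in all libraries. Choroid plexus markers, which mark neighbouring tissue, summed to 109 to 4063 CPM in Tau carriers and 76.3 to 5108 CPM in non-carriers.

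Promoter sequences of 6 of the genes are shown because their transcripts differed most clearly by tau transgene or because their letters differ in the motifs below. RefSeq promoter windows on GRCm38.p6, a build other than the mm39 of the counts, matched 23 of the 29 genes, and the 250 bases before each start were searched on both strands. ACAAAG and ACAATG are core letters bound by SOX factors such as SOX10, and CTGGCAC and CTGGTAC are forms of the site bound by MYRF, the regulator of central myelin genes. Capitals mark these motifs on either strand (CTTTGT and CATTGT are the reverse complements of the SOX letters). The stretches lie at chr7:30914923-30915172 (minus strand) for Mag (the second of its listed start sites), chr11:100574689-100574903 (plus strand) for Cnp, chr9:120149492-120149706 (plus strand) for Mobp, chr19:41077114-41077363 (minus strand) for Opalin, chr4:155785875-155786124 (minus strand) for Tmem88b and chr5:137963099-137963348 (minus strand) for Gjc3. For Cnp and Mobp the last bases before the listed start, which an annotated exon covers, are left out. Each is written 5′ to 3′ on the strand of its gene.
Mag: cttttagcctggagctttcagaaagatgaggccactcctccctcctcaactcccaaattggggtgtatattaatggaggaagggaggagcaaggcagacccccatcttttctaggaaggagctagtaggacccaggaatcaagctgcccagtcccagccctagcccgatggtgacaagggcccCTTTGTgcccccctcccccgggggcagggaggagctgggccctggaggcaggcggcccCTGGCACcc
Cnp: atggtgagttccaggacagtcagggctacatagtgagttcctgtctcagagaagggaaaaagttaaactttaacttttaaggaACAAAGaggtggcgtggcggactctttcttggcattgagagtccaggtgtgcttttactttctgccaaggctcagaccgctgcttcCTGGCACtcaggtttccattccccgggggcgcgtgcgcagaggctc
Mobp: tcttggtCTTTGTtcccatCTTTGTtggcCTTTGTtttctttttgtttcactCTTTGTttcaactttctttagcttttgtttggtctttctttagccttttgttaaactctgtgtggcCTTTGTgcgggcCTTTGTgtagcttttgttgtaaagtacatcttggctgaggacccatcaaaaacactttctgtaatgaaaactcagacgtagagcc
Opalin: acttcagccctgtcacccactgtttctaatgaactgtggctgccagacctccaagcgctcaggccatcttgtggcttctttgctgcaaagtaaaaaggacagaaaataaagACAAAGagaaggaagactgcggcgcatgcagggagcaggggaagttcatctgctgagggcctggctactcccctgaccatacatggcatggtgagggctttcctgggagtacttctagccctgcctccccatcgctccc
Tmem88b: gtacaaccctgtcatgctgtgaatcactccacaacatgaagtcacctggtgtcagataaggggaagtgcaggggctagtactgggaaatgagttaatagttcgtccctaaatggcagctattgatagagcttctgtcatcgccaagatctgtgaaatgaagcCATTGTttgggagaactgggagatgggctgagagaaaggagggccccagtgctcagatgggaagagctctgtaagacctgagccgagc
Gjc3: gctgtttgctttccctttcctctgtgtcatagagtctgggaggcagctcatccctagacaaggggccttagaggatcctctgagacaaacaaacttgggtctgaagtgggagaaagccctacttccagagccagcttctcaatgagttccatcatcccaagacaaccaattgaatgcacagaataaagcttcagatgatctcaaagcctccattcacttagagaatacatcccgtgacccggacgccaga

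Mag and Cnp each held both kinds of letters, with CTGGCAC 9 bases before the Mag start and 81 bases before the Cnp start. Mobp held ACAAAG 6 times on the opposite strand, between 243 and 120 bases before its start, Opalin held it 139 bases before its start, and Tmem88b held ACAATG 88 bases before its start. Gjc3 held none of the 4. ACAAAG was present for 30.4% of the 23 genes with a window and 18.6% of all 27025 genes with one, ACAATG for 21.7% and 12.2%, CTGGCAC for 13% and 4.8%, and CTGGTAC for 4.3% and 2.1%. The E-box letters CAGATG were present for 39.1% of the 23 genes and 16.3% of all genes, and CAGCTG for 13% and 14.7%. CAGCTG can share bases with the CTGG letters where they abut, each was counted on its own, and no test was made of these shares. A match of letters is a description of the window and not a bound site.

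Transcript levels of the 29 genes spanned a wide range. Per kilobase of annotated exon (GENCODE M21), Mbp, which encodes the basic protein that compacts myelin, had the highest median over the 36 libraries, with 179 CPM per kb. Trf, encoding the iron carrier transferrin, followed with 93.5, then Qdpr with 86.2, Mobp with 85.6 and Mal with 79.7 CPM per kb. The lowest were Ninj2, an adhesion gene, with 1.49, Aspa, encoding the enzyme that cleaves N-acetylaspartate, with 2.39, and Gal3st1, the sulfotransferase that makes sulfatide, with 4.82 CPM per kb. Qdpr, Mobp and Mal are neighbours in this order and differ by less than their spread over libraries. Exons of 9 of the 29 genes overlap another annotated gene, over 63.5% of exon bases for Trf and 54.2% for Pllp. The sources used here do not say if counting took account of strand, and values of these genes may include reads of their neighbours.

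Myelin genes were higher in mice with the tau transgene. Averaged over the 4 pairs of groups that differ only in that transgene (APP/Tau against APP and Tau against WT, each trained and naive), 20 of the 29 genes rose in Tau carriers and 0 fell (edgeR quasi-likelihood test, Benjamini-Hochberg adjusted p under 0.05). Across all 25382 genes tested, 0.725% rose and 0.835% were called in either direction. The 29 genes were chosen with earlier results of these data known, so the count beside these shares is a description. All 29 estimates were above 0, with a median log2 change of 0.36 and a range of 0.096 to 0.51, against a median of −0.0075 over all genes. The genes varied together within groups (median Pearson r 0.70), so counts of genes here and below are not counts of independent results. In bulk tissue, more oligodendrocytes and more RNA per oligodendrocyte cannot be told apart. How much of the alveus and fimbria each dissection took was not measured by any list.

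**Figure D1:**
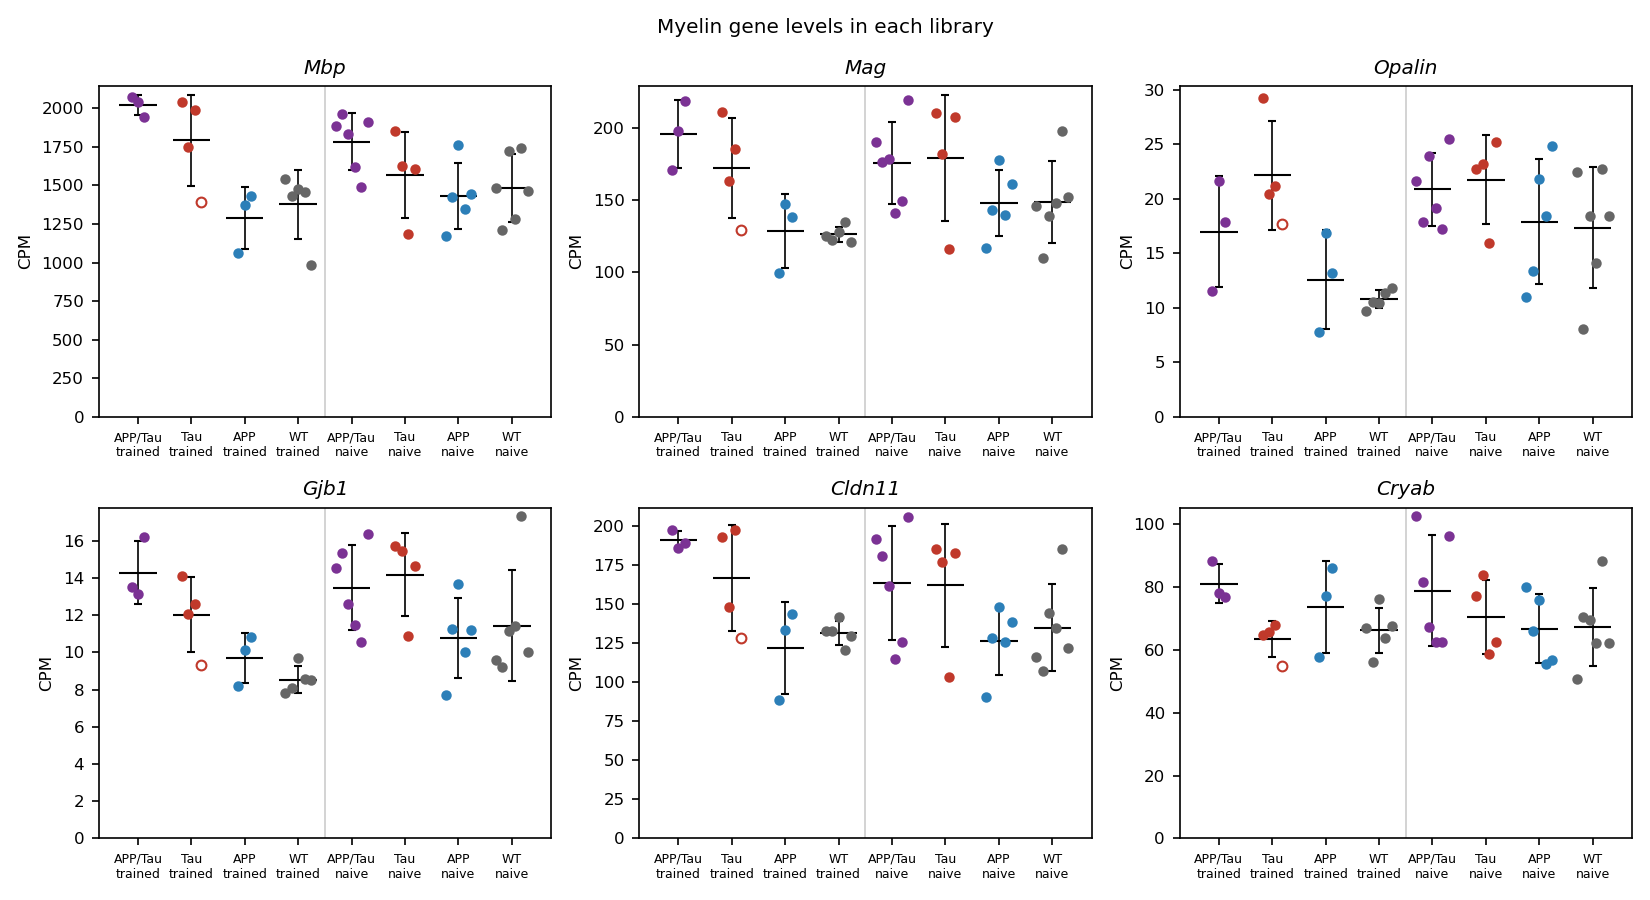
CPM of 6 myelin genes (vertical axes, from 0) in each of the 36 libraries, in 8 groups along the horizontal axis with trained groups on the left and naive groups on the right. Points are libraries, the open point is the library labelled Tau trained replicate 4, and lines and bars are the group mean and SD. Mbp lies between 1946 and 2072 CPM in trained APP/Tau libraries, above every trained APP and WT library, while Cryab spans 55.0 to 103 CPM in Tau carriers and 50.8 to 88.2 CPM in non-carriers.

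Among genes of compact myelin, Mbp, Mobp and Pllp rose and Mal did not pass. Mbp lay at 1184 to 2072 CPM (median 1851) in Tau carriers and at 984 to 1761 CPM (median 1434) in non-carriers, a log2 change of 0.36 ± 0.071 (SE, adjusted p = 0.0114). In trained mice it stood at 2072, 2041 and 1946 CPM in APP/Tau and 2043, 1750.2, 1987 and 1392 CPM in Tau libraries, against 1061, 1373 and 1434 CPM in APP and 1538, 1429, 1475, 1459 and 984 CPM in WT libraries. The 3 trained APP/Tau libraries and 3 of the 4 trained Tau libraries were above every trained APP and WT library, and the library labelled Tau trained replicate 4 lay among them. In naive mice Mbp stood at 1490.4 to 1965 (median 1857, n = 6) CPM in APP/Tau and 1851, 1625, 1184 and 1609 CPM in Tau libraries, against 1173, 1424, 1761, 1346 and 1442 CPM in APP and 1210.2 to 1742 (median 1472, n = 6) CPM in WT libraries. The naive groups overlapped, and the lowest Tau carrier of all was Tau naive replicate 3.

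Mobp, a second basic protein of compact myelin, lay at 419 to 853 CPM (median 658) in Tau carriers and at 314 to 691 CPM (median 551) in non-carriers, with a log2 change of 0.34 ± 0.084 (SE, adjusted p = 0.0399). Mal, a proteolipid that helps sort proteins to the myelin membrane, lay at 168 to 308 CPM (median 260.1) in Tau carriers and 143 to 255 CPM (median 204) in non-carriers, and its change of 0.30 ± 0.076 (SE, adjusted p = 0.0545) did not pass. Pllp, encoding plasmolipin, a proteolipid of the myelin sheath, rose by 0.39 ± 0.097 (SE, adjusted p = 0.0447).

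Mag, Mog, Cldn11, Opalin and Tspan2, which encode adhesion, junction and membrane proteins of the sheath, rose as well. Mag, the adhesion protein of the innermost wrap that faces the axon, lay at 116 to 219.7 CPM (median 182) in Tau carriers and at 99.5 to 198 CPM (median 139) in non-carriers, a log2 change of 0.39 ± 0.084 (SE, adjusted p = 0.0203). Trained libraries had 171, 198 and 219 CPM in APP/Tau and 211, 163, 185 and 129 CPM in Tau mice, against 99.5, 148 and 139 CPM in APP and 126, 122, 128, 135 and 121 CPM in WT mice. The 5 trained WT libraries were close together, and all 3 trained APP/Tau libraries lay above them and above the APP libraries.

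Mog, a glycoprotein of the outermost myelin surface, lay at 35.1 to 70.6 CPM (median 61.4) in Tau carriers and at 32.1 to 63.8 CPM (median 45.6) in non-carriers (log2 change 0.37 ± 0.087 SE, adjusted p = 0.0343). Cldn11, the claudin of the tight junctions between myelin layers, lay at 103 to 206 CPM (median 183) in Tau carriers and at 88.6 to 185 CPM (median 133) in non-carriers (log2 change 0.41 ± 0.095 SE, adjusted p = 0.0322). Opalin, a transmembrane glycoprotein of oligodendrocytes, had the highest estimate among the 29 genes, at 0.51 ± 0.13 (SE, adjusted p = 0.0464). Its levels were 11.5 to 29.3 CPM (median 21.2) in Tau carriers and 7.80 to 24.8 CPM (median 13.4) in non-carriers, and 16 of 17 carriers lay above the median of the non-carriers. Among trained mice, Opalin had 11.5, 21.6 and 17.9 CPM in APP/Tau and 29.3, 20.5, 21.2 and 17.7 CPM in Tau libraries, against 7.80, 16.8 and 13.2 CPM in APP and 9.71, 10.5, 10.4, 11.4 and 11.8 CPM in WT libraries. All 4 trained Tau libraries, with the library labelled Tau trained replicate 4 among them, were above every trained WT library, whereas 1 trained APP/Tau library lay within the WT range. Tspan2, a tetraspanin of the oligodendrocyte membrane, rose by 0.33 ± 0.076 (SE, adjusted p = 0.0304), while Ermn, an actin-linked cytoskeletal protein of oligodendrocytes, had 0.33 ± 0.091 (SE, adjusted p = 0.0798) and did not pass.

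Both gap junction genes rose. Gjc3, a connexin of oligodendrocytes, had the smallest p of the set, with 48.4 to 72.3 CPM (median 63.8) in Tau carriers and 44.0 to 61.7 CPM (median 52.5) in non-carriers, a log2 change of 0.27 ± 0.051 (SE, adjusted p = 0.00671). For Gjc3, 12 of the 17 Tau carriers lay above every non-carrier. Gjb1, the connexin that couples layers of the same sheath, lay at 9.33 to 16.4 CPM (median 13.5) in Tau carriers and at 7.68 to 17.3 CPM (median 10.0) in non-carriers (log2 change 0.42 ± 0.084 SE, adjusted p = 0.0114). Trained libraries had 13.5, 13.1 and 16.2 CPM in APP/Tau and 14.1, 12.0, 12.6 and 9.33 CPM in Tau mice, against 8.22, 10.1 and 10.8 CPM in APP and 7.81, 8.08, 9.68, 8.59 and 8.51 CPM in WT mice. The highest single value of Gjb1, 17.3 CPM, belonged to a non-carrier, WT naive replicate 5.

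Enzymes that make myelin lipids and handle metabolites were among the genes that rose. Ugt8a, which makes galactosylceramide, rose by 0.37 ± 0.087 (SE, adjusted p = 0.0338), Fa2h, which hydroxylates the fatty acids of these lipids, by 0.36 ± 0.077 (SE, adjusted p = 0.0203), and Gal3st1 by 0.25 ± 0.061 (SE, adjusted p = 0.0368). Their means were 77.3 ± 14, 39.2 ± 6.01 and 10.7 ± 1.18 CPM in Tau carriers, against 60.8 ± 10.2, 31.4 ± 5.59 and 9.17 ± 1.33 CPM in non-carriers (SD, n = 17 and n = 19). Cnp, the cyclic nucleotide phosphodiesterase of uncompacted myelin, lay at 215 to 366 CPM (median 317) in Tau carriers and at 154 to 325 CPM (median 243) in non-carriers (log2 change 0.36 ± 0.082 SE, adjusted p = 0.0284). Aspa rose by 0.43 ± 0.086 (SE, adjusted p = 0.0124) and Trf by 0.45 ± 0.10 (SE, adjusted p = 0.0242). Qdpr, which regenerates tetrahydrobiopterin, had 0.23 ± 0.062 (SE, adjusted p = 0.0721), and Car2, the carbonic anhydrase of oligodendrocytes, had 0.16 ± 0.061 (SE, adjusted p = 0.212), and neither passed.

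The 2 transcription factor genes of the set rose too. Myrf, needed for central myelination, lay at 54.2 to 91.3 CPM (median 81.1) in Tau carriers and at 48.6 to 77.1 CPM (median 63.4) in non-carriers (log2 change 0.31 ± 0.066 SE, adjusted p = 0.0185), and 10 of 17 carriers lay above every non-carrier. Nkx6-2, a homeodomain factor of oligodendrocytes, rose by 0.34 ± 0.077 (SE, adjusted p = 0.0242). Tmem88b rose by 0.43 ± 0.081 (SE, adjusted p = 0.00706) and Plekhb1 by 0.24 ± 0.053 (SE, adjusted p = 0.0239). Of the rest, which did not pass, Ppp1r14a had 0.38 ± 0.099 (SE, adjusted p = 0.0553), Anln, an actin-binding scaffold of septins, 0.27 ± 0.078 (SE, adjusted p = 0.0820), and Ninj2 0.39 ± 0.13 (SE, adjusted p = 0.133). Hapln2, a matrix link protein at nodes, had 0.21 ± 0.10 (SE, adjusted p = 0.372), and Cryab, a small heat shock protein, had the lowest estimate of the set, 0.096 ± 0.079 (SE, adjusted p = 0.644). These 2 were also the genes whose Tau carriers overlapped non-carriers most, with 12 and 10 of 17 carriers above the non-carrier median.

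**Figure D2:**
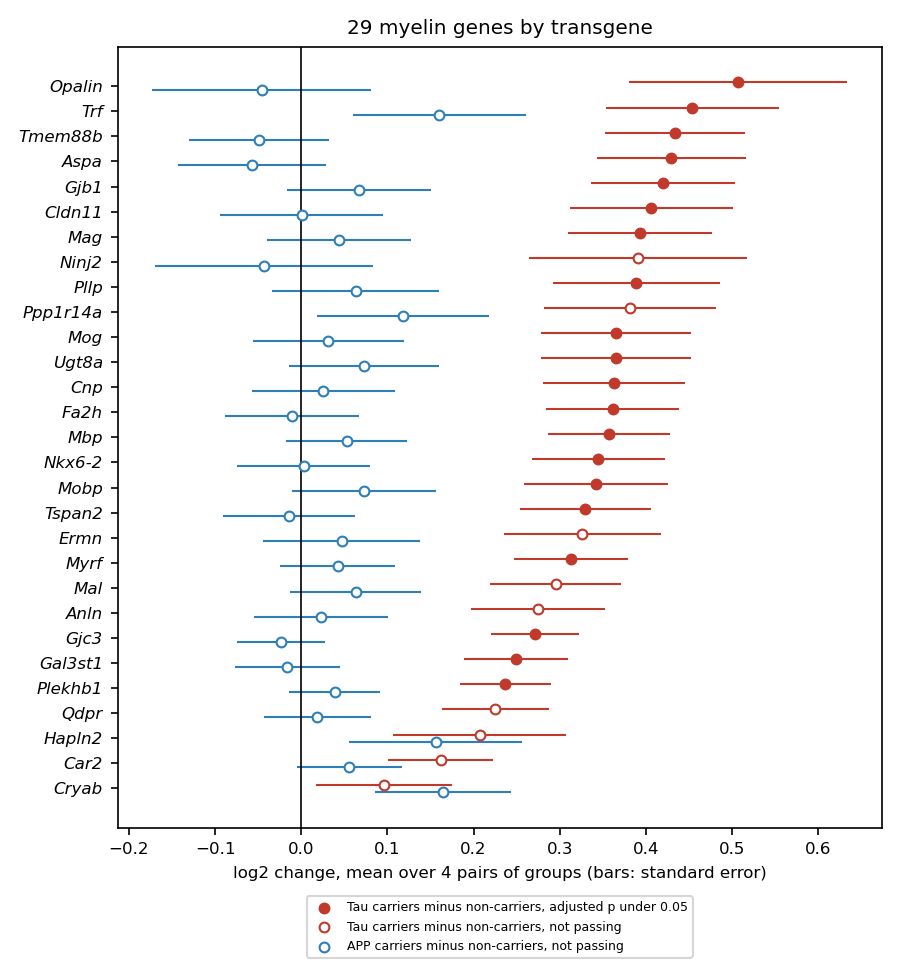
Log2 change of each of the 29 myelin genes (rows), averaged over 4 pairs of groups, for Tau carriers minus non-carriers (red) and APP carriers minus non-carriers (blue); bars are standard errors and filled points passed an adjusted p of 0.05. All 29 red points lie above 0 and 20 are filled, while the blue points lie between −0.057 and 0.16 and none is filled.

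The number of genes called rests in part on single libraries, while the size of the change does so less. Leaving out 1 library gave 5 to 25 called genes and a median of 0.32 to 0.39, where 0.251% to 1.51% of all genes were called. The count was 5 without APP trained replicate 1, 6 without APP/Tau trained replicate 3, 8 without Tau naive replicate 2, 8 without Tau trained replicate 1, 9 without Tau trained replicate 3 and 12 without Tau naive replicate 4. It was 24, with a median of 0.38, without the library labelled Tau trained replicate 4. Mbp, Aspa, Gjb1, Gjc3 and Tmem88b were called in all 36 of these fits. Without the filter on low counts 11 genes were called, beside 0.299% of all genes, and DESeq2 called 25, beside 2.39%.

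Markers of microglia were also higher in some Tau carriers. In the Tau carrier comparison, 13.2% of all genes had an unadjusted p under 0.05. Of the 13 microglial markers, 0 passed in edgeR (10 at an unadjusted p under 0.05) and 1 in DESeq2, with a median log2 change of 0.41 and 11 of 13 above 0, and Ctss, a lysosomal protease, came nearest (0.65, adjusted p = 0.104). Their summed level ran between 390 and 956 CPM in Tau carriers (median 452) and between 360 and 532 CPM in non-carriers (median 447), and none was at 0 in all libraries. With the microglial score of each library as a covariate, a setting added after the data were seen, 0 of the 29 myelin genes were called and their median log2 change was 0.30. In that fit 0.0985% of all genes were called, against 0.835% without the covariate. The score is the mean log2 difference from all libraries. APP/Tau naive replicates 1 and 6 and Tau naive replicate 2 had myelin scores of 0.29, 0.39 and 0.28 with microglial scores of 0.88, 0.80 and 0.80. APP/Tau trained replicate 1 had the highest microglial score, 0.99, with a myelin score of 0.13. APP/Tau trained replicate 3, Tau naive replicate 4 and Tau naive replicate 1 had myelin scores of 0.35, 0.25 and 0.32 with microglial scores of −0.19, −0.32 and −0.13. Whether microglial content plays a part in the myelin values was not tested beyond this.

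**Figure D3:**
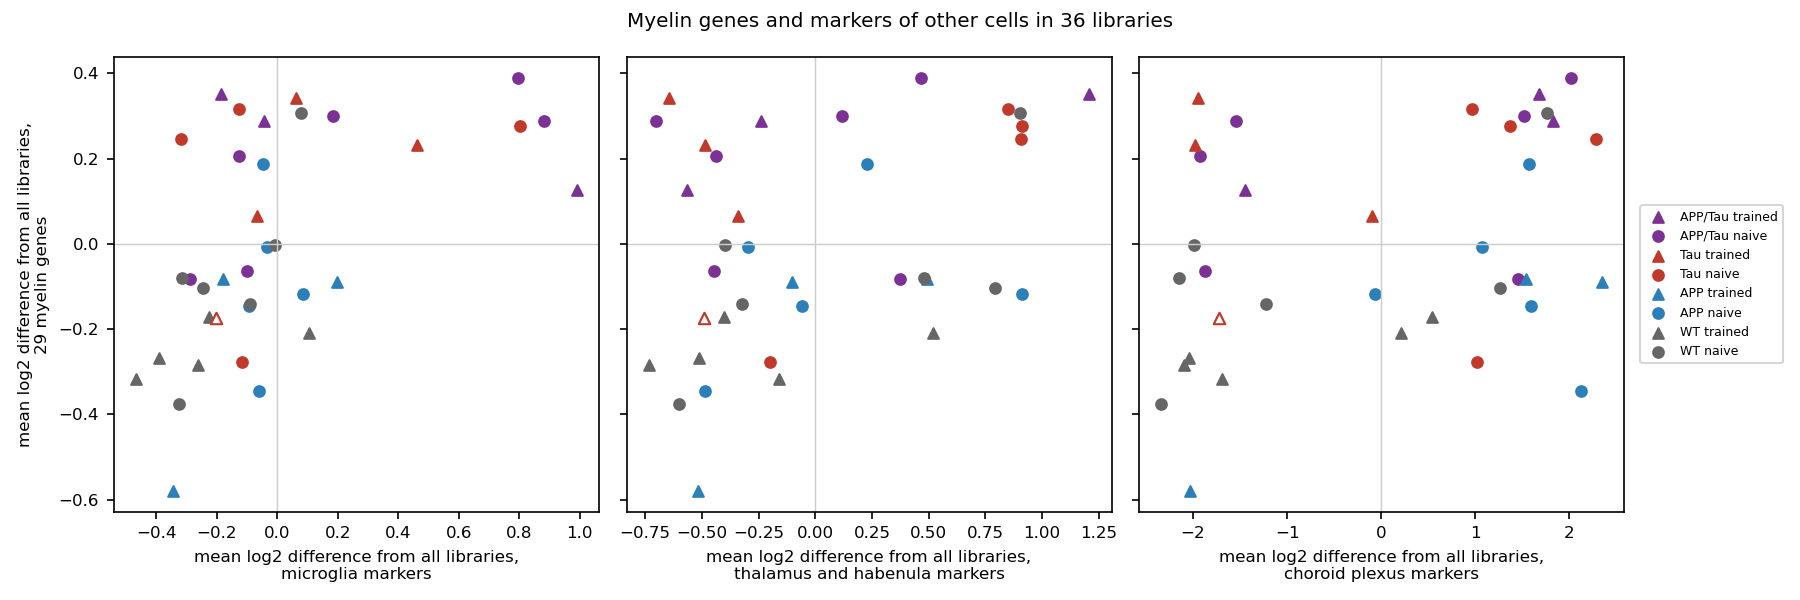
Mean log2 difference from all libraries of the 29 myelin genes (vertical axes) against that of microglial, thalamus and habenula, and choroid plexus markers (horizontal axes), 1 point per library; triangles are trained and circles naive, and the open triangle is the library labelled Tau trained replicate 4. Myelin scores lie between −0.28 and 0.39 in Tau carriers and between −0.58 and 0.31 in non-carriers, and libraries with a high myelin score are found at both low and high microglial and choroid plexus scores.

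In the Tau carrier comparison, markers of other tissue and cells gave no call in edgeR. Choroid plexus markers had a median log2 change of −0.022 and thalamus and habenula markers −0.016, and with either score as a covariate 23 and 22 myelin genes were called. In those fits 0.965% and 0.985% of all genes were called. Of 121 markers of these tissues, of astrocytes, excitatory neurons, interneurons, endothelium, mural cells, ependyma, striatum, blood and peripheral myelin, 0 passed in edgeR (19 at an unadjusted p under 0.05) and 0 in DESeq2, and 1 passed without Tau naive replicate 3 or without WT trained replicate 4. An unadjusted p under 0.05 was found for 13.2% of all genes. The list medians lay between −0.17 for striatum and 0.20 for ependyma. WT trained replicate 4 stood apart with a striatum score of 2.21, where the next highest was 0.42 in Tau naive replicate 3. Its excitatory neuron score was −0.33 and its myelin score −0.21. It was kept in all comparisons of trained WT mice, and the striatum score was not used as a covariate.

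Other genes of the oligodendrocyte lineage, none of them among the 29, were read in the same comparison. These lists too were chosen with earlier results of these data known, and are not independent support. Of 31 further genes of mature oligodendrocytes, 10 rose in Tau carriers and 0 fell (3 rose with the microglial score as a covariate, and 17 were called by DESeq2, beside 2.39% of all genes), with a median log2 change of 0.30 and all 31 above 0. Prr18 rose by 0.38 ± 0.065 (adjusted p = 0.00325), S1pr5, a sphingosine phosphate receptor of oligodendrocytes, by 0.41 ± 0.073 (adjusted p = 0.00423), Prr5l by 0.45 ± 0.080 (adjusted p = 0.00430) and Tmem63a, a mechanosensitive channel, by 0.34 ± 0.066 (adjusted p = 0.00869). The count of 10 was 5 without Tau naive replicate 2, APP trained replicate 1 or APP/Tau trained replicate 3, and 6 without Tau trained replicate 1 or 3. Sox10, the lineage factor that acts with Myrf, rose by 0.33 ± 0.063 (adjusted p = 0.00715) and was the only 1 of 18 further transcription factors to pass. Its mean was 48.1 ± 5.40 CPM in Tau carriers and 38.9 ± 6.27 CPM in non-carriers (SD, n = 17 and n = 19).

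Earlier stages of the lineage and partners of the sheath were read by list, and differences between the lists were not tested. Of all genes, 0.835% were called and 13.2% had an unadjusted p under 0.05. Of 20 precursor and newly formed genes, Enpp6, a choline phosphodiesterase of newly formed oligodendrocytes, rose by 0.61 ± 0.11 (adjusted p = 0.00325) and Bcas1, a marker of early myelinating cells, by 0.38 ± 0.086 (adjusted p = 0.0281), and the median of the list was 0.054. Enpp6 averaged 10.9 ± 2.32 CPM in Tau carriers and 7.34 ± 1.84 CPM in non-carriers (SD, n = 17 and n = 19). Of 19 genes of the axoglial junction and node, 1 rose, Cntn2, an adhesion molecule of the juxtaparanode (0.24 ± 0.048, adjusted p = 0.0128), and the list median was 0.024. The list of myelin lipid genes mixes synthesis with breakdown, such as Arsa and Galc. Of its 16 further genes, 0 passed in edgeR (2 at an unadjusted p under 0.05) and 1 in DESeq2. Their median was 0.023, and Cers2, a ceramide synthase, came nearest (adjusted p = 0.0540). Of 18 genes reported in reactive oligodendrocytes, 1 rose, Il33, a cytokine gene (0.36 ± 0.083, adjusted p = 0.0311), which is also on the mature list, and the median was 0.34. Scores of this list were highest in APP/Tau trained replicate 1 (0.94), APP/Tau naive replicates 6 (0.72) and 1 (0.66) and Tau naive replicate 2 (0.60). The same libraries had the highest microglial scores, and which cells gave these reads was not tested. DESeq2 called 4 of the reactive genes. With no filter on low counts 1 precursor gene and 0 reactive genes were called. With the microglial score as a covariate 1 precursor or newly formed gene was called, and 0 of the transcription factor, axoglial and reactive lists. Without Tau naive replicate 2, APP trained replicate 1 or 2, or Tau trained replicate 1 or 3, 1 of the 2 calls on the precursor list and the call of Il33 were lost, and Il33 was lost without APP/Tau trained replicate 3 too.

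Within trained mice, APP/Tau against WT gave the largest median difference of the 6 genotype comparisons with WT. In this comparison 0 of the 29 genes passed in edgeR (25 at an unadjusted p under 0.05) and 2 in DESeq2 (beside 0.451% of all genes in DESeq2), where 0.0552% of all genes were called by edgeR. An unadjusted p under 0.05 was found for 10.2% of all genes. All 29 estimates were above 0, with a median log2 change of 0.54 and a range of 0.28 to 0.85. The smallest adjusted p was 0.155, for Gjb1 (0.74 ± 0.18 SE), followed by Trf (0.85 ± 0.21 SE, adjusted p = 0.155). Trf had 453, 393 and 471 CPM in APP/Tau and 246, 208, 260.5, 263 and 243 CPM in WT libraries. For 25 of the 29 genes all 3 APP/Tau libraries lay above all 5 WT libraries, as for 3.99% of all genes, and the 4 others were Opalin, Ugt8a, Hapln2 and Car2. With only the groups compared in the fit, 6 of the 29 were called, beside 0.109% of all genes, and 1 was called without WT naive replicate 5.

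Tau against WT in trained mice had a median of 0.38 and a range of −0.27 to 1.04. In this comparison 0 of the 29 genes passed in edgeR (20 at an unadjusted p under 0.05) and 5 in DESeq2 (beside 2.35% of all genes in DESeq2), against 0.303% of all genes in edgeR. Of all genes, 15.2% had an unadjusted p under 0.05. Opalin came nearest (1.04 ± 0.25 SE, adjusted p = 0.0541), then Aspa (0.66 ± 0.17 SE, adjusted p = 0.0688). Aspa had 19.8, 17.9, 17.4 and 11.8 CPM in Tau and 9.38, 10.8, 11.0, 11.3 and 10.8 CPM in WT libraries. The groups did not overlap for 9 genes, as for 2.95% of all genes, namely Mog, Cnp, Opalin, Aspa, Trf, Tspan2, Pllp, Qdpr and Tmem88b. Without the library labelled Tau trained replicate 4 the median was 0.47 and 1 gene was called, it was 2 genes without WT naive replicate 2 or 5, and 6 with only the groups compared, beside 1.02% of all genes. It was 1 gene without APP naive replicate 1 or 5, APP trained replicate 1 or 2, WT trained replicate 5 or APP/Tau trained replicate 1. Among genes outside the set, Enpp6 (0.99 ± 0.21 SE, adjusted p = 0.0242) and Zfp536 (0.45 ± 0.088 SE, adjusted p = 0.0229), a zinc finger gene on the list of lineage transcription factors, rose in this comparison.

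APP/Tau against APP in trained mice, a comparison that uses no WT library, had a median of 0.49 and a range of 0.14 to 0.71, and the median was 0.31 without APP trained replicate 1. Here too 0 of the 29 genes passed in edgeR (25 at an unadjusted p under 0.05) and 0 in DESeq2, with 0.00394% of all genes called by edgeR. The same unadjusted level was reached by 6.93% of all genes. Mbp had the smallest p of the set (0.65 ± 0.17 SE, adjusted p = 0.554). For 15 of the 29 genes the 3 APP/Tau libraries lay above the 3 APP libraries, as for 4.19% of all genes.

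Naive mice had smaller estimates in the same direction. APP/Tau against WT had a median of 0.24 (0.090 to 0.38), Tau against WT 0.23 (−0.0097 to 0.40), or 0.36 without Tau naive replicate 3, and APP/Tau against APP 0.25 (0.096 to 0.51). In these 3 comparisons 0 of the 29 genes passed in edgeR or in DESeq2, and 7, 2 and 10 had an unadjusted p under 0.05. That unadjusted level was reached by 7.48%, 9.31% and 9.72% of all genes. Of all genes, 0.067%, 0.0276% and 0.0276% were called by edgeR, and 0.0197% were called higher in APP/Tau against APP. Myrf (0.27 ± 0.11 SE, adjusted p = 0.634) and Trf (0.38 ± 0.17 SE) came nearest for APP/Tau against WT, and Aspa (0.40 ± 0.16 SE, adjusted p = 0.478) and Gal3st1 (0.27 ± 0.11 SE) for Tau against WT. Myrf had 59.4 to 91.3 (median 81.2, n = 6) CPM in APP/Tau and 54.2 to 74.4 (median 69.2, n = 6) CPM in WT libraries. No gene of the set had separate groups in these 3 comparisons, where 0.169%, 0.693% and 1% of all genes did. Among genes outside the set, Npy, on the interneuron list, fell in naive APP/Tau against WT (−0.55 ± 0.11 SE, adjusted p = 0.0367). The comparisons with WT share their WT libraries, so their estimates are not independent.

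Without the tau transgene, the APP transgene was not accompanied by a detectable difference. APP against WT had a median of 0.0048 (−0.26 to 0.27) in trained and −0.025 (−0.18 to 0.11) in naive mice. Leaving out 1 library moved the trained median between −0.091 (without APP trained replicate 3) and 0.17 (without APP trained replicate 1), and the naive one between −0.083 (without APP naive replicate 3) and 0.063 (without WT naive replicate 5). The trained median was −0.00043 without the library labelled Tau trained replicate 4. In both comparisons 0 of the 29 genes passed in edgeR or DESeq2, and 0 had an unadjusted p under 0.05, with 0.0276% and 0.0355% of all genes called. That unadjusted level was reached by 5.84% of all genes in trained and 3.68% in naive mice. The smallest p belonged to Ppp1r14a (0.27 ± 0.22 SE) and Trf (0.25 ± 0.21 SE) in trained mice and to Gjc3 (−0.10 ± 0.090 SE) and Hapln2 (−0.18 ± 0.18 SE) in naive mice. Averaged over 4 pairs of groups, APP carriers had a median of 0.039 against non-carriers (0.013 without the library labelled Tau trained replicate 4, and 0.0040 to 0.076 over all libraries left out, lowest without Tau naive replicate 3 and highest without APP trained replicate 1), and 0 of the 29 genes passed in edgeR (1 at an unadjusted p under 0.05) and 0 in DESeq2, beside 0.0985% of all genes. The gene at an unadjusted p under 0.05 was Cryab (0.16 ± 0.079 SE, adjusted p = 0.485). Of all genes, 9.95% reached that unadjusted level. The standard errors of single genes in these comparisons reach 0.29 in trained and 0.22 in naive mice. Changes of that size, and changes well above it, could not be told from 0. In trained Tau against WT, even the 1.04 of Opalin did not pass.

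**Figure D4:**
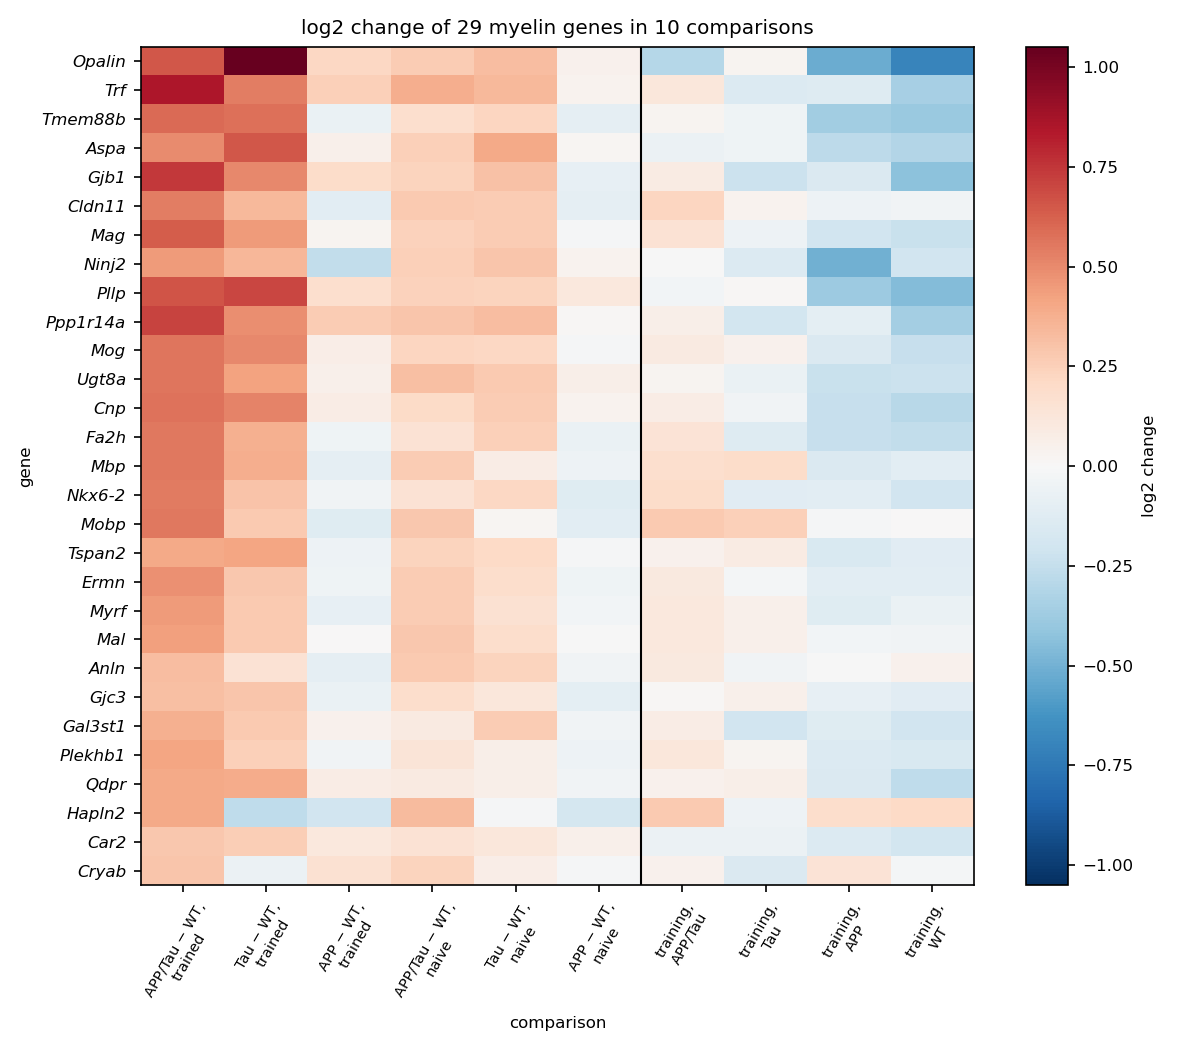
Log2 change (colour) of the 29 myelin genes (rows, in the order of their Tau carrier estimate) in 6 comparisons of genotype with WT and 4 comparisons of trained with naive mice (columns). The columns for APP/Tau and Tau against WT are above 0 in nearly all rows, with Opalin at 1.04 for trained Tau. The columns for APP against WT lie around 0. Training is below 0 for 26 of 29 genes in WT, 27 in APP, 17 in Tau and 5 in APP/Tau mice.

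Adding APP to the tau transgene gave no called gene of the set. APP/Tau against Tau had a median of 0.17 in trained and 0.025 in naive mice. In edgeR or DESeq2 0 of the 29 passed, beside 0.481% and 0.0394% of all genes in edgeR. An unadjusted p under 0.05 was found for 1 and 0 of the 29, and for 15.7% and 6.6% of all genes. The trained median was 0.064 without the library labelled Tau trained replicate 4 and 0.099 without APP/Tau trained replicate 3. The naive median changed sign with single libraries and was −0.097 without Tau naive replicate 3 and 0.081 without Tau naive replicate 1. The 1 gene was Hapln2 (0.67 ± 0.22 SE, adjusted p = 0.141). It had 61.4, 30.2 and 41.4 CPM in trained APP/Tau and 25.7, 25.1, 36.3 and 24.6 CPM in trained Tau libraries, groups that overlap. The difference between the APP/Tau change and the sum of the APP and Tau changes had a median of 0.092 in trained and 0.038 in naive mice, with 0 of the 29 passing in either tool, 1 and 0 at an unadjusted p under 0.05, and 0.0118% and 0% of all genes called. The trained value was 0.037 without the library labelled Tau trained replicate 4, and it lay between −0.043 (without APP trained replicate 1) and 0.24 (without APP trained replicate 3) over all libraries left out. The naive value lay between −0.094 (without Tau naive replicate 3) and 0.10 (without APP naive replicate 3). For the difference from the sum, 9.39% of all genes in trained and 7.13% in naive mice had an unadjusted p under 0.05.

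Maze training gave no called gene of the set. Trained against naive mice had a median of 0.085 in APP/Tau, −0.039 in Tau, −0.14 in APP and −0.20 in WT mice. Over all 8 groups, the mean of the set had a pooled SD of 0.21 (log2) between libraries of a group. The WT median was −0.11 without WT naive replicate 5. The APP median lay between −0.23 (without APP trained replicate 3) and −0.026 (without APP trained replicate 1). The Tau median was 0.066 without the library labelled Tau trained replicate 4 and −0.16 without Tau naive replicate 3, so its sign rests on single libraries. The APP/Tau median lay between 0.035 (without APP/Tau naive replicate 5) and 0.14 (without APP/Tau trained replicate 1). None of the 29 genes, and 0% of all genes, passed in any of these 4 comparisons in edgeR, DESeq2 called 0 of the 29, and 0, 0, 1 and 5 of the 29 had an unadjusted p under 0.05. Of all genes, 3.07%, 14.6%, 5.24% and 5.85% had such a p, in the same order. Estimates were below 0 for 27 of the 29 genes in APP, 17 in Tau and 5 in APP/Tau mice. In WT mice 26 of the 29 estimates were below 0, among them Opalin (−0.69 ± 0.23 SE, adjusted p = 0.845) and Gjb1 (−0.43 ± 0.15 SE). Opalin had 9.71, 10.5, 10.4, 11.4 and 11.8 CPM in trained WT and 8.08 to 22.8 (median 18.4, n = 6) CPM in naive WT libraries, and 1 naive library lay below all trained ones. Tmem88b (−0.37 ± 0.17 SE) and Opalin (−0.52 ± 0.27 SE) had the smallest p in APP mice, Gal3st1 (−0.20 ± 0.12 SE) and Mobp (0.25 ± 0.17 SE) in Tau mice, and Mobp (0.27 ± 0.17 SE) and Hapln2 (0.27 ± 0.20 SE) in APP/Tau mice.

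Whether the transgenes' differences depended on training was tested by interaction terms. The APP/Tau difference from WT was larger in trained than in naive mice by a median of 0.28, the Tau difference by 0.17 and the APP difference by 0.032. The Tau term was 0.056 without Tau naive replicate 3, 0.065 without Tau trained replicate 1, 0.080 without WT naive replicate 5 and 0.25 without the library labelled Tau trained replicate 4. The APP term lay between −0.048 (without APP naive replicate 1) and 0.17 (without APP trained replicate 1). None of the 29 genes, and 0% of all genes, passed for any of the 3 terms in edgeR, DESeq2 called 0 of the 29, and 1, 1 and 0 had an unadjusted p under 0.05. These were Gjb1 for APP/Tau (0.51 ± 0.23 SE, adjusted p = 0.981) and Opalin for Tau (0.72 ± 0.34 SE, adjusted p = 0.544). The same unadjusted level was reached by 4.14%, 9.04% and 2.67% of all genes for the APP/Tau, Tau and APP terms. Averaged over the 4 genotypes, training had a median of −0.076 (−0.037 without APP trained replicate 1), and 0 of the 29 genes passed in edgeR (4 at an unadjusted p under 0.05) and 0 in DESeq2, beside 0% of all genes. For this average 7.95% of all genes had an unadjusted p under 0.05. The test of any difference among the 8 groups called 0 of the 29 in edgeR, with 24 at an unadjusted p under 0.05 and a smallest adjusted p of 0.0764 for Tmem88b, beside 0.366% of all genes. DESeq2 called 18 of the 29, beside 5.84% of all genes. In edgeR the count of 0 became 3 without Tau naive replicate 3 and 2 without WT naive replicate 5 or APP trained replicate 3.

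The 29 genes varied together from library to library within groups. After centring each gene on its group means, the median Pearson r between 2 of the genes was 0.70 over 406 pairs and 36 libraries, from 0.0079 for Opalin and Hapln2 up to 0.96 for Mog and Mag. These values share the libraries' dissection and depth and are given as a description. Mag, Mog and Mal had the highest mean r with the other genes (0.78, 0.77 and 0.76), and Hapln2, Anln and Cryab the lowest (0.29, 0.46 and 0.47). The median SD within groups was 0.25 on the log2 scale. It was 0.12 over all tested genes at or above the level of the lowest member other than Ninj2. The median myelin gene thus spread more between libraries of a group than the median of those genes. Genes outside the set whose centred levels followed the mean of the 29 most closely, out of 16338 ranked over 36 libraries, included Rnf13 (r = 0.94), Ttyh2 (0.93), Evi2a (0.92), Tmem63a (0.91), Tmem125 (0.91), Slc44a1, a choline transporter (0.91), Pacs2 (0.90), Gatm, an enzyme of creatine synthesis (0.90), Septin4, a myelin septin (0.90), and S1pr5 (0.89).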

How the data were processed

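Counts of the input fraction of both hippocampi were analysed in 36 libraries of 8 groups, taken from the sample titles. The authors deposited raw whole-number counts per gene symbol. Reads had been trimmed with Trimmomatic 0.39 and the build was mm39, per the submitters' processing notes. Aligner, counting tool, annotation and strand setting: not given in the sources used here. Per the labels' protocols, 100 ng of RNA went into each poly(A) library and 40 M paired reads (M for mega) were planned. Library totals of 69.2 to 125 M counts exceed that plan, so small counts may be less precise than they look.

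Counts were used as deposited in edgeR 4.0.16 (R 4.3.3). A minimum count of 10 and a minimum total of 15 (filterByExpr with the groups) left 25382 of the 41519 genes that had any count. A mean per group was fitted to all 36 libraries after TMM scaling, with glmQLFit (robust) and glmQLFTest. The Benjamini-Hochberg adjustment ran over all genes within each of 20 contrasts and within a test of any group difference, at 0.05. The contrasts of APP/Tau with APP in each training state were added after the data were seen. CPM are counts per M of the TMM-scaled total. The score of a list in a library is the mean over its genes of log2 CPM (prior count 2) after subtracting each gene's mean over libraries. The steps were also run on simulated counts with known changes. Genes were drawn independently there, so that run does not bear on counts of called genes that vary together.

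The members and the gene lists were chosen with earlier results of these data known. In full were given the structural genes (Mbp, Mog, Mag, Mobp, Cnp, Cldn11), members called in any contrast, and the 2 members with the smallest p in each genotype and training contrast. From the lists of the oligodendrocyte lineage, the sheath and microglia, up to 4 called genes, or else the 1 nearest, were named. Other lists were given by counts and medians, with any called gene named. The genes most like the set were the 12 with the highest r, at a mean log2 CPM of 0 or more, of which those with a usual gene name are given. Samples are numbered in the labels, with no statement that each is a separate mouse, and p-values therefore describe the spread between samples, which may be technical. Among 68 pairs within groups, 0 were identical. Results were recomputed with RLE size factors, with no filter, with DESeq2 1.42.0, with a replicate block, with library number or marker scores as covariates, with only the groups compared, and leaving out each library. Values of 1 further gene are not reported here.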

Additional observations from a re-analysis of the deposited data

Results flagged for a closer look

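Among 174 sets of 1 gene in 1 group of 4 to 6 libraries, 19 held a library far from the others by Dixon's criterion, which is 10.9%. Chance flags about 1 in 20 groups, and the genes vary together, so these flags are not independent of each other.

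Tau naive replicate 3 lay far below the other naive Tau libraries for 5 genes, with 103 CPM of Cldn11, 57.3 CPM of Ugt8a, 9.32 CPM of Gal3st1, 168 CPM of Mal and 59.9 CPM of Tmem88b. The nearest other library had 177, 80.8, 12.3, 255 and 86.6 CPM of these genes. Without it, the median log2 change of the 29 genes for naive Tau against WT was 0.36. In the Tau carrier comparison 25 of them were called, beside 1.51% of all genes.

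WT naive replicate 5 lay far above the other naive WT libraries for 7 genes, with 17.3 CPM of Gjb1, 467 CPM of Trf, 12.8 CPM of Gal3st1, 105.5 CPM of Ermn, 2.37 CPM of Ninj2, 232 CPM of Car2 and 11.8 CPM of Ppp1r14a. Without it, 25 genes were called in the Tau carrier comparison, beside 1.07% of all genes. APP naive replicate 3 lay far above the other naive APP libraries for Trf (391.8 CPM), Anln (67.4 CPM) and Car2 (203 CPM).

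The remaining flags fell on single genes. Tau trained replicate 3 had 36.3 CPM of Hapln2, above 24.6 to 25.7 CPM in the other trained Tau libraries. Among trained WT libraries, replicate 5 had 984 CPM of Mbp, replicate 4 had 42.6 CPM of Anln and replicate 1 had 9.38 CPM of Aspa, each below the others.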

How the results depend on the processing

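The count of myelin genes called in Tau carriers, 20, was 11 with no filter on low counts and 0 with the microglial score as a covariate (chosen after the data were seen), and 5 to 25 when each library in turn was left out. Of all genes, 0.299% were called with no filter and 0.0985% with the microglial score. The median log2 change stayed between 0.30 and 0.39 under these and the other settings tried (RLE size factors, replicate block, marker scores, library number and DESeq2). For Tau against WT in trained mice the count of 0 became 3 with the choroid plexus score, 5 with the thalamus and habenula score, 4 with library number, 5 in DESeq2, 6 with only the groups compared, and 0 to 2 without 1 library. The share of all genes called was 0.303% in edgeR without covariates. It was 0.611%, 1.04% and 0.961% with these covariates, 2.35% in DESeq2 and 1.02% with only the groups compared. For APP/Tau against WT in trained mice the count of 0 became 2 in DESeq2, 6 with only the groups compared, and 0 to 1 without 1 library. There DESeq2 called 0.451% of all genes, and the fit of only the groups compared called 0.109%. For any group difference the count of 0 became 1 with the thalamus and habenula score, 18 in DESeq2, and 0 to 3 without 1 library. Shares of all genes called were 0.41% with that score and 5.84% in DESeq2. The log2 change of Cryab in Tau carriers turned to −0.029 with the microglial score, and the cause was not tested. Training in Tau mice had a median of 0.20 with the thalamus and habenula score. The cause of the other changes of count was not tested, beyond fewer libraries where some were left out. With the replicate number as a block, 17 genes were called in Tau carriers, beside 0.753% of all genes. Deviations of same-numbered libraries had r of −0.51 to 0.41 (median −0.037), and 29 of 106 such pairs had r over 0.1. Of 36 libraries, 5 correlated best with their own number. Whether same-numbered samples share a batch was not tested. Of 1276 results for single genes in Tau carriers, 1053 kept their side of the threshold, 180 lost their call, 42 gained one and 1 reversed.

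Ninj2, at 0.776 to 2.37 CPM, is the gene most limited by depth. The groups of 3 to 6 libraries limit all comparisons between pairs of groups.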
